A study of Mus musculus with 2 samples.

Results

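The cells described here were B16F10 melanoma cells that carried few cell-cycle transcripts and at least 3 of 8 marker transcripts. They were selected on measured values, counted as unique molecular identifiers (UMIs, each standing for a captured mRNA molecule). A cell had to show 200 to 5000 genes, 2% to 7.5% of its UMIs from mitochondrial genes, at least 0.5% of its UMIs from the pigment cell genes Pmel, Dct, Mlana and Tyrp1, and no UMI of Ptprc, the pan-leukocyte gene CD45. It could hold UMIs of at most 2 of the replication genes Mcm2, Mcm3, Mcm4, Cdt1, Dtl and Uhrf1 and of at most 1 of the mitosis genes Mki67, Ube2c, Cenpf, Tpx2 and Cdk1. Finally it needed a UMI of at least 3 of the markers Mc1r, Tspan10, Trpm1, Gsta4, Ptgds, Bfsp2, Coq8a and Arfgef3. Of 11778 barcodes in both libraries, 633 met these conditions, 275 of 6304 in the WT library and 358 of 5474 in the KO library. They are called marker-positive cells below, and the non-cycling melanoma cells with fewer than 3 markers are called marker-low cells.

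B16F10 is a pigmented mouse melanoma line of C57BL/6 origin. Its cells were injected under the skin of Rosa26::CreERT2 mice, in which the ubiquitous Rosa26 locus drives a tamoxifen-inducible Cre, and both host genotypes received tamoxifen. Hosts labelled Atf4wt/wt (WT) kept an intact Atf4, and hosts labelled Atf4D/D (KO) carried floxed alleles that Cre deletes. Genotype therefore refers to the host, since the injected cells kept their own Atf4. Each library pooled 2 small tumours of hosts aged 11 weeks, labelled as pooled male and female. With 1 library per genotype there was no test between genotypes. Ratios are given on the log2 scale, some of them with 95% intervals in parentheses, which cover counting error only and not the spread between animals.

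Melanocytes make melanin in melanosomes through tyrosinase and the tyrosinase-related enzymes encoded by Tyrp1 and Dct, under control of the transcription factor MITF. MITF is known both for switching on pigment genes and for its links to cell-cycle exit in pigment cells, and melanoma cells are often placed along an axis from a differentiated, MITF-high state to a dedifferentiated state. ATF4 is the transcription factor of the integrated stress response. It turns on genes for amino acid synthesis and uptake, tRNA charging and stress signalling when translation initiation is restrained.

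Within the limits on genes and mitochondrial UMIs there were 3689 WT and 3233 KO cells, and 1738 and 1687 of them passed as melanoma cells. The libraries shared 10 barcodes, none of them marker-positive in both and 1 of them a KO marker-positive cell. In the Ptprc-positive host cells, Atf4 stood at 178 CPM (UMIs per 1000000 UMIs, summed over the cells of a class) in WT and 44 CPM in KO, a log2 ratio of -2.02 (-2.62 to -1.47). The label of pooled sexes did not show in the WT library. Its host cells held 0 UMIs of the Y-linked genes Ddx3y, Eif2s3y, Kdm5d and Uty, against 60 UMIs (87.9 CPM) in KO host cells. The parts of host sex and host genotype in a difference between the libraries cannot be told apart. Doublet calls fell on 10 of the 275 WT and 10 of the 358 KO marker-positive cells, which were kept.

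Promoter sequences show which of the marker and pigment genes have a short stretch of letters in common. MITF binds E-boxes, and the form CATGTG, which reads CACATG when taken from the other strand, is the core of the M-box of pigment gene promoters. RefSeq promoters (250 bases before to 50 bases after the start site, GRCm38.p6) were found for 7 of the 8 markers and for 2 of the 4 pigment genes of the rule. Among 32851 promoters of 27025 genes, 14.2% held CATGTG on either strand, 7.15% held CACGTG and 20.4% held either of these. The promoters of Mc1r, Trpm1, Tspan10, Dct, Tyrp1 and Tyr held CATGTG, and those of Arfgef3, Bfsp2, Coq8a, Ptgds and Mitf held neither form. Another promoter of Trpm1, not printed below, held CATGTG and CACGTG. The stretches around the match, chosen because they are the markers and pigment genes with the letters in common, are printed from 5′ to 3′ on the strand of the gene, upstream of the start site, with the match in capitals.
Mc1r, chr8:123406991-123407046, plus strand: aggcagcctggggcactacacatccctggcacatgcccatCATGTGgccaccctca
Tspan10, chr11:120442570-120442625, plus strand: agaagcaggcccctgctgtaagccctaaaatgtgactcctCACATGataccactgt
Trpm1, chr7:64153654-64153709, plus strand: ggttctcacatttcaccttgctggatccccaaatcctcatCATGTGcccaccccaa
Dct, chr14:118052381-118052436, minus strand: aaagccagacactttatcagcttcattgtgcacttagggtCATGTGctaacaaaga
Tyrp1, chr4:80834127-80834182, plus strand: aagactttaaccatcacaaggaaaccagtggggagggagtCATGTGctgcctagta
Tyr, chr7:87493518-87493573, minus strand: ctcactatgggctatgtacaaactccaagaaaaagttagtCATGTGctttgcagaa
The capitals began 51 bases before the start site in Mc1r, 21 in Tspan10, 141 in Trpm1, 150 in Dct, 46 in Tyrp1 and 21 in Tyr. A second match, CACATG, stands in lower case shortly before the capitals in the Mc1r stretch. A match describes letters and is not a measured binding site.

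Marker-positive cells made up 15.8% (14.1 to 17.6%) of the WT and 21.2% (19.3 to 23.3%) of the KO melanoma cells, a log2 ratio of 0.42 (0.19 to 0.66). The larger KO share stood beside a larger share of non-cycling cells of any marker number, 22.2% in WT and 32.1% in KO (0.53, 0.34 to 0.72 on the log2 scale). Within the non-cycling cells the marker-positive share was 71.2% in WT and 66.1% in KO, a log2 ratio of -0.11 (-0.34 to 0.12). The remaining cells were classed by the genes detected. Most fell in the class called G2/M (at least 2 of the mitosis genes), with 1235 WT and 1009 KO cells. Fewer fell in the class called S phase (at least 3 of the replication genes and not G2/M), with 117 WT and 136 KO cells. Replication genes did not keep a cell out of the G2/M class. Mcm2 stood there at 199 (WT) and 155 CPM (KO), beside 207 and 174 CPM in the S-phase class. Cdt1 stood at 65.8 and 59.5 CPM, beside 101 and 87.9 CPM. Marker-positive cells held a median of 8937 UMIs in WT and 9416.5 in KO. That was below the G2/M cells (12710 and 12486) and well above the marker-low cells (1243 and 2452.5).

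**Figure D1:**
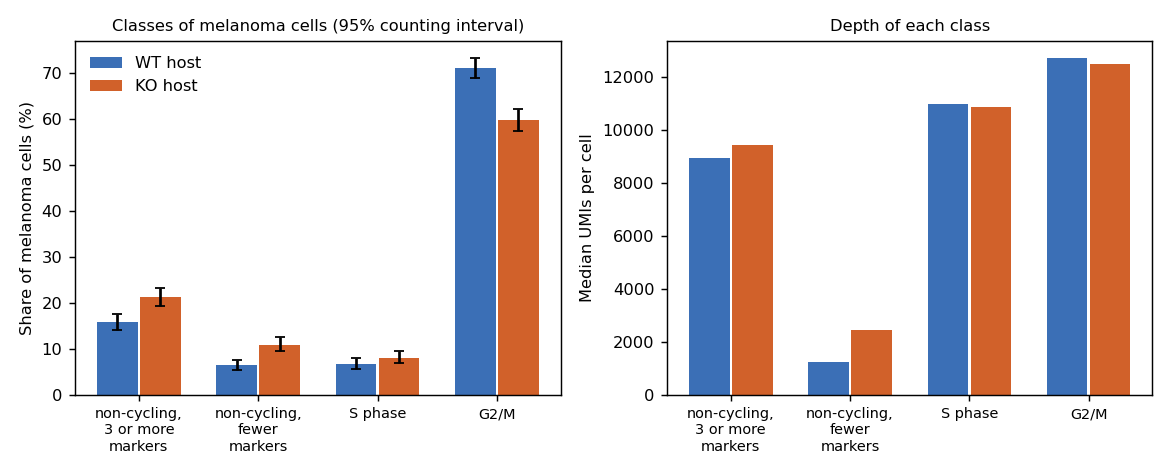
Share of melanoma cells in each class in percent with 95% counting intervals (left) and median UMIs per cell of the class (right), for the WT host (blue) and KO host (orange) library. Marker-positive cells made up 15.8% in WT and 21.2% in KO, and the marker-low class was much shallower than the others.

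Having at least 3 markers did not set these cells apart from cycling melanoma cells. By summed level the 8 markers were somewhat lower in cycling than in all non-cycling cells, with log2 ratios of -0.24 in WT and -0.13 in KO. At least 3 markers were also seen in 93.2% of WT and 89% of KO S-phase cells and in 92.6% and 89.7% of G2/M cells. After every cell was thinned to 5000 UMIs, 3 or more markers were found in 74.4% of WT non-cycling, 83% of S-phase and 73% of G2/M cells. The KO values were 63.7%, 73.6% and 65%. Thinning left out 128 of 386 WT and 129 of 542 KO non-cycling cells as too shallow, but only 5 and 7 S-phase and 51 and 28 G2/M cells. The name differentiated is therefore not used for them here, and they are named by the rule.

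More markers were seen in deeper cells in both libraries. Among non-cycling cells with under 2000 UMIs, 11.1% in WT and 8.60% in KO had 3 markers, and with 10000 UMIs or more these shares were 96.3% and 89.7%. Between 5000 and 10000 UMIs the share was 91% (85.7 to 94.7%) in WT and 76.6% (70.8 to 81.7%) in KO non-cycling cells, beside 90.3% and 80.9% of cycling cells. From 5000 UMIs up, cycling and non-cycling cells thus lay close together at a given depth, and KO lay below WT. Just inside the threshold, the 65 WT and 94 KO cells with exactly 3 markers had medians of 7224 and 8484.5 UMIs. Just outside it, the 42 WT and 88 KO cells with exactly 2 markers had medians of 2054.5 and 6458 UMIs.

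**Figure D2:**
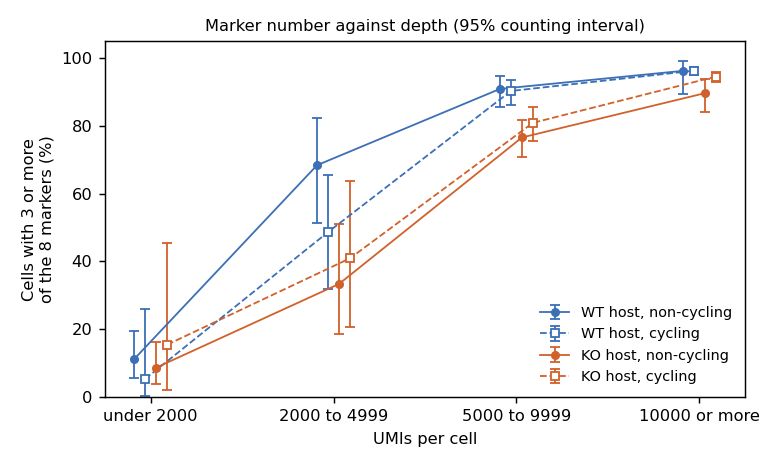
Share of cells with 3 or more of the 8 markers in percent (y axis, 95% counting intervals) by UMIs per cell (x axis), for non-cycling (filled) and cycling (open, dashed) melanoma cells of the WT (blue) and KO (orange) library. The share went from 11.1% (WT) and 8.60% (KO) of the shallowest non-cycling cells to 96.3% and 89.7% of the deepest.

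The 8 markers belong to several kinds of gene, and since the rule used their UMIs their levels are given as a description. Mc1r encodes the receptor for melanocyte-stimulating hormone, which raises cyclic AMP and pigment synthesis. It was at 89.7 (WT) and 103 CPM (KO) in marker-positive cells, beside 47.1 and 81.9 CPM in cycling cells (S phase and G2/M together), log2 ratios of 0.93 in WT and 0.33 in KO. Trpm1 encodes melastatin, a cation channel of melanocytes and retinal bipolar cells, and Tspan10 encodes a tetraspanin membrane protein. Trpm1 stood at 201 (WT) and 101 CPM (KO), and its ratio to cycling cells was -0.17 in WT and -0.08 in KO. Tspan10 stood at 205 (WT) and 139.9 CPM (KO), with ratios to cycling cells of 0.46 in WT and 0.35 in KO. Only Mc1r in WT came near 2 times the level of cycling cells among these 3 membrane protein genes. Most cycling cells were of the G2/M class, and the ratios to cells of the S-phase class alone were lower. They were 0.27 in WT and -0.17 in KO for Mc1r, 0.18 and -0.18 for Tspan10 and -0.22 and -0.43 for Trpm1.

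The other 5 markers are a lipocalin, 2 enzymes of metabolism and 2 cytoskeletal or trafficking genes. Ptgds, which encodes the lipocalin-type prostaglandin D synthase, was at 1716 (WT) and 1323 CPM (KO), with log2 ratios to cycling cells of 0.34 in WT and 0.16 in KO. Gsta4, a glutathione transferase that clears lipid peroxidation products, was at 128 (WT) and 74.7 CPM (KO), with ratios of 0.40 in WT and 0.37 in KO. Coq8a, needed for coenzyme Q synthesis in mitochondria, was at 67.7 (WT) and 55.4 CPM (KO), with ratios of 1.56 in WT and 1.24 in KO. Coq8a showed the largest such ratio of the 8 markers in both libraries. In S-phase cells alone it was at 29.9 (WT) and 44.3 CPM (KO), nearer to the marker-positive cells than in G2/M cells (22.5 and 21.0 CPM). The lens beaded filament gene Bfsp2 was at 134 (WT) and 166 CPM (KO) with ratios of -0.07 in WT and 0.06 in KO, and Arfgef3, which carries an ARF guanine nucleotide exchange factor domain, was at 68.2 (WT) and 103 CPM (KO), with ratios of 0.59 in WT and 0.70 in KO. Summed over the 8 markers, of which Ptgds was by far the most abundant, the ratio was 0.33 in WT and 0.21 in KO.

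Detection is given beside Ptprc-positive host cells, which should lack these markers, as a description, since the rule required marker UMIs in the marker-positive cells. After thinning to 2000 UMIs, which left out 10 WT and 8 KO marker-positive and 323 and 149 host cells, Mc1r had a UMI in 18.1% of WT and 19.7% of KO cells, against 0.784% and 1.33% of host cells. Trpm1 had one in 27.5% of WT and 15.1% of KO cells, against 5.49% and 1.33% of host cells. Ptgds had one in 89.1% of WT and 82.9% of KO cells, against 16.5% and 12% of host cells. Unthinned, Mc1r was detected in 49.5% of WT and 58.1% of KO marker-positive cells at median depths of 8937 and 9416.5 UMIs, and in 0.692% and 2.01% of host cells at median depths of 1750.5 and 2019 UMIs.

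**Figure D3:**
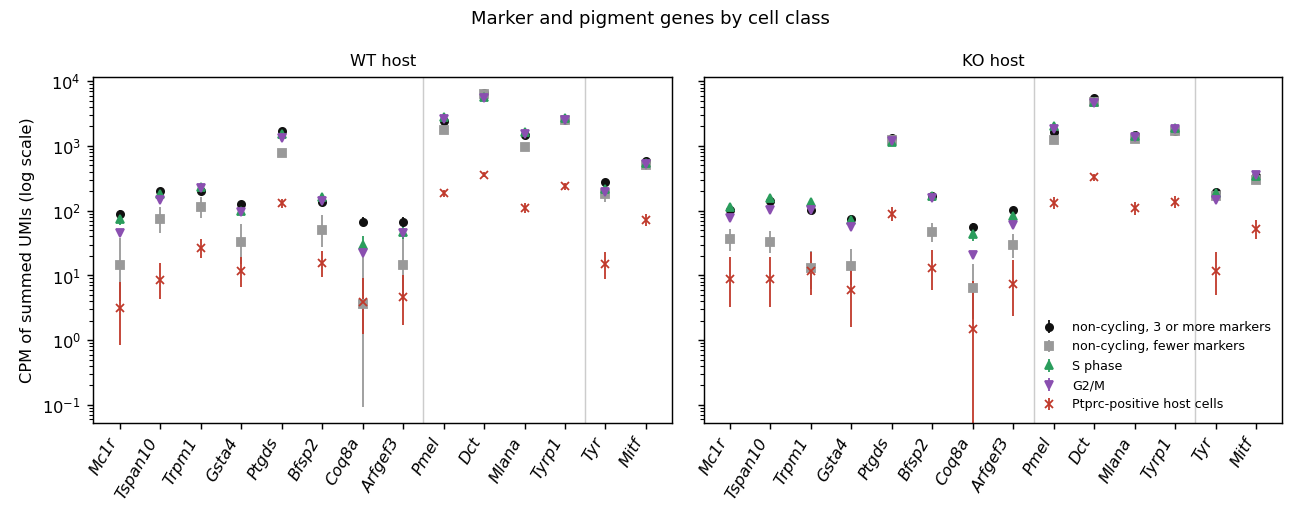
CPM of summed UMIs (log scale) for the 8 markers, the 4 pigment genes of the rule, Tyr and Mitf, in marker-positive, marker-low, S-phase and G2/M melanoma cells and in Ptprc-positive host cells, with 95% counting intervals, for the WT (left) and KO (right) library. Marker-positive cells lay beside S-phase and G2/M cells for most genes, while Coq8a stood higher (67.7 CPM in WT, 55.4 in KO).

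The melanosome genes of the rule were at similar levels in marker-positive and cycling cells. Both classes had to pass the same limit of 0.5% of UMIs from these genes, so their levels are a description. Dct, encoding dopachrome tautomerase, was at 6512 (WT) and 5433 CPM (KO), with log2 ratios to cycling cells of 0.23 in WT and 0.24 in KO. Pmel, the fibril protein of the melanosome, was at 2427 (WT) and 1669.9 CPM (KO), a log2 ratio to cycling cells of -0.11 in WT and -0.15 in KO. Tyrp1, encoding another melanin synthesis enzyme, and Mlana, a melanosome membrane protein, had ratios of -0.01 in WT and -0.11 in KO and of -0.05 in WT and 0.12 in KO. Summed over the 4 genes the ratio was 0.08 in WT and 0.09 in KO. Among genes outside the rule, Tyr, the rate-limiting enzyme of melanin synthesis, stood above cycling cells by 0.51 in WT and 0.38 in KO, at 275 (WT) and 196 CPM (KO). Mitf was at 584 (WT) and 346 CPM (KO), with ratios of 0.14 in WT and -0.05 in KO, and Sox10, a neural crest factor acting upstream of Mitf, had ratios of -0.06 in WT and -0.02 in KO.

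Against cycling cells, 362 of 9819 genes (3.69%) were at least 1.5-fold higher in marker-positive cells of both libraries and 758 (7.72%) at least 1.5-fold lower. In a single library the shares were 10.4% higher and 13.2% lower in WT and 6.4% higher and 11.7% lower in KO. This comparison was chosen after seeing the data, because the cycling cells were closer in depth than the marker-low cells. The rule itself set the cycle genes low, so their values are only a description. All 21 replication genes listed were lower by at least 1.5-fold in both libraries, with medians of -2.03 in WT and -1.74 in KO, and all 22 mitosis genes were, with medians of -3.73 and -3.53. Top2a, which untangles DNA before division, was at 24.6 (WT) and 19 CPM (KO) in marker-positive cells against 404 and 346 CPM in cycling cells. Among the genes furthest below cycling cells in both libraries were the spindle motor genes Kif11, Kif4 and Kif23, the spindle and midzone genes Nusap1, Aspm and Prc1, the cohesin protector genes Sgo1 and Sgo2a, the kinase genes Aurkb and Nek2, the kinetochore gene Knl1, the mitotic regulator gene Fbxo5, and Clspn, which acts in the replication checkpoint.

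Genes of hypoxia and glycolysis stood above cycling cells as a group. Of 28 measured, 21 in WT and 18 in KO were at least 1.5-fold higher and none was lower, all 28 were above 0 in both libraries, and the medians were 0.95 in WT and 0.79 in KO, beside -0.02 and -0.06 over the 9819 genes. Ero1l, an oxidase that helps disulphide bond formation and responds to low oxygen, was at 556 (WT) and 663 CPM (KO), against 137 and 212 CPM in cycling cells, log2 ratios of 2.02 in WT and 1.65 in KO. Car9, the cell-surface carbonic anhydrase induced by hypoxia, was at 152 (WT) and 184 CPM (KO) against 39.8 and 63 CPM, ratios of 1.93 in WT and 1.55 in KO. Both genes were thus higher in each library. Ndrg1 (1.59 in WT and 1.55 in KO) and the mitophagy receptors Bnip3 (1.62 in WT and 1.40 in KO) and Bnip3l (1.26 in WT and 1.09 in KO) were likewise higher. So were the collagen prolyl hydroxylase P4ha2 (1.28 in WT and 1.39 in KO) and, outside the list, the aldolase Aldoc (1.61 in WT and 1.33 in KO), the glycogen synthase Gys1 (1.71 in WT and 1.28 in KO) and the mitochondrial protein gene Mgarp (1.43 in WT and 1.38 in KO). The abundant glycolytic enzymes differed less, as Ldha (0.39 in WT and 0.28 in KO) and Pgk1 (0.77 in WT and 0.52 in KO) show. Per cell after thinning to 5000 UMIs, the list summed to a median of 133 UMIs in WT and 125 in KO marker-positive cells, against 80 and 79 in cycling cells, with a range over marker-positive cells of 32 to 284 in WT and 30 to 255 in KO.

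Genes that restrain the cell cycle formed the next group. The rule split the classes by cycle genes, so the values of these cycle regulators are only a description. Of 21 measured, 11 in WT (52.4%) and 8 in KO (38.1%) were at least 1.5-fold higher and 1 and 2 lower, with medians of 0.79 and 0.52. Over all genes 10.4% in WT and 6.4% in KO were higher, and 13.2% and 11.7% lower. Mxd4, a MYC antagonist, led all genes by the smaller of the ratios in both libraries, 2.37 in WT and 1.76 in KO, at 109.6 (WT) and 79 CPM (KO) against 21.3 and 23.4 CPM in cycling cells. The related Mxi1 (1.21 in WT and 1.19 in KO), the antiproliferative gene Btg2 (1.76 in WT and 1.44 in KO) and the p53 target Trp53inp1 (1.89 in WT and 1.20 in KO) were also higher. Cdkn1a, encoding the CDK inhibitor p21, was at 271 (WT) and 427 CPM (KO) against 117 and 298 CPM, ratios of 1.22 in WT and 0.52 in KO. Those at least 1.5-fold lower were the INK4 inhibitor Cdkn2c in both libraries (-1.01 in WT and -1.40 in KO) and Cdkn2d in KO (-0.57 in WT and -1.06 in KO). Among 11 G1 cyclins and kinases, 1 (9.09%) was higher in each library, near the share of all genes. It was Ccnd2, which encodes cyclin D2 (1.03 in WT and 0.89 in KO). In each library 4 (36.4%) were lower, among them the cyclin E gene Ccne1 (-1.32 in WT and -1.16 in KO) and E2f1 (-2.17 in WT and -2.90 in KO).

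Stress-inducible genes were also above cycling cells. Of the ATF4 targets and stress response genes, 16 of 32 measured in WT and 18 of 34 in KO were at least 1.5-fold higher, with medians of 0.48 and 0.61, and 1 and 0 were lower. Nupr1, a stress-induced chromatin regulator, had ratios of 1.84 in WT and 1.48 in KO. The stress-response factor Ddit3 (CHOP) had ratios of 1.21 in WT and 0.77 in KO and Slc7a11, the cystine transporter, 1.30 in WT and 1.37 in KO. Shmt2, a mitochondrial serine enzyme, was the member below in WT, with ratios of -0.63 in WT and -0.31 in KO. Immediate early genes were higher in 8 of 16 measured in WT and 4 of 15 in KO (medians 0.58 and 0.47), for example the AP-1 genes Junb (1.26 in WT and 1.07 in KO) and Jun (1.04 in WT and 0.64 in KO). Hmox1, the haem-degrading enzyme of oxidative stress, had ratios of 1.26 in WT and 0.86 in KO. Outside the lists, the genes with the largest ratios were Selenbp1, which encodes a selenium-binding protein (2.38 in WT and 1.52 in KO), the actin-bundling espin gene Espn (2.06 in WT and 1.53 in KO) and the histone H3 lysine 4 demethylase gene Kdm5b (1.99 in WT and 1.51 in KO).

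A few antigen presentation genes stood above cycling cells, at low counts. Of the interferon and antigen presentation genes, 7 of 19 measured in WT and 6 of 18 in KO were at least 1.5-fold higher and 2 and 0 lower, with medians of 0.47 and 0.45. H2-K1, the class I heavy chain, was at 124 (WT) and 104 CPM (KO) against 31.6 and 42.6 CPM, ratios of 1.97 in WT and 1.28 in KO, while its partner B2m had ratios of 0.47 in WT and 0.17 in KO. Reads of H2-K1 and its close relatives may be split between them in the counting. Host macrophage markers, of which 12 of 12 had a UMI, summed to 258 CPM in WT and 179 CPM in KO marker-positive cells against 190 and 144 CPM in cycling cells and 29336 and 30034 CPM in Ptprc-positive cells. With the 12 WT and 3 KO cells over 0.5% host and red cell marker UMIs left out, the interferon medians were 0.40 and 0.39, and those of the hypoxia list were 0.96 and 0.81.

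Pigment and respiratory chain genes differed little between marker-positive and cycling cells. The 31 measured pigment enzymes and melanosome proteins outside the rule had medians of -0.01 and 0.01, with 3 in each library higher by 1.5-fold and, in KO, 1 lower. The higher ones in both were Cited1, a transcriptional cofactor (0.86 in WT and 0.95 in KO), Slc7a11, and Bloc1s3 of a melanosome biogenesis complex (0.69 in WT and 0.72 in KO). The 39 nuclear oxidative phosphorylation genes had medians of -0.02 and -0.03, with none past 1.5-fold. Lysosome genes leaned upward, with 26 of 29 above 0 in WT and 27 of 30 in KO and medians of 0.29 and 0.23. The 12 other coenzyme Q genes had medians of -0.25 and -0.35, on the other side of 0 from Coq8a, with 4 lower and 1 higher by 1.5-fold in WT and 2 lower and 0 higher in KO. Glutathione and antioxidant genes had medians of 0.04 and -0.06, with 2 higher in each library. The dedifferentiation genes leaned upward, with 11 of 12 measured above 0 in WT and 9 of 13 in KO, and medians of 0.39 and 0.12. By 1.5-fold 4 (33.3%) were higher and 0 lower in WT, and 3 (23.1%) were higher and 1 lower in KO. Over all genes 10.4% in WT and 6.4% in KO were higher. Within the dedifferentiation list, the WNT5A, AXL and NGFR type markers were nearly silent. Wnt5a, Ngfr, Sox2 and Egfr had 0 UMIs in marker-positive cells of both libraries and Axl had 3 and 5.

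**Figure D4:**
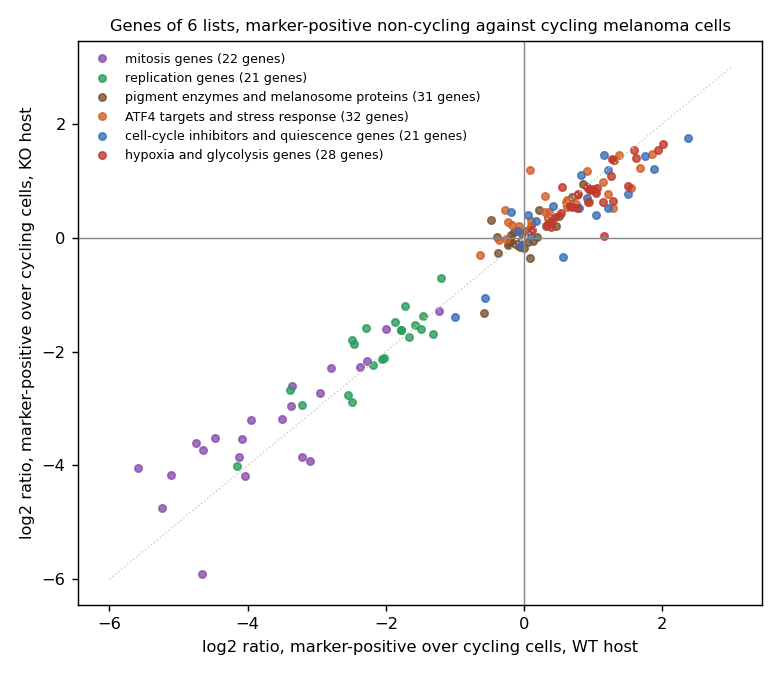
Each point is a gene of 6 lists, placed by its log2 ratio of CPM, marker-positive over cycling melanoma cells, in the WT (x axis) and KO (y axis) library, with equality dotted. Mitosis genes (medians -3.73 and -3.53) and replication genes lay far below 0, pigment genes around 0, and hypoxia genes (medians 0.95 and 0.79), cell-cycle inhibitors and ATF4 targets mostly above 0.

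The marker-low cells were much shallower, so the comparison with them sets deep against shallow cells. At least 1.5-fold in both libraries, 81 of 5599 genes (1.45%) were higher and 83 (1.48%) lower in marker-positive cells. In WT alone 12.6% were higher and 11.7% lower, and in KO alone 7.18% and 5.9%. Genes of the pigment list outside the rule were higher in 3 of 23 measured and lower in 2 in WT, near the share of all genes, and higher in 8 of 28 and lower in 0 in KO, with medians of 0.24 and 0.30. In WT the median was -0.15 when the threshold was set at 2 markers. Hypoxia genes were lower, with medians of -0.31 and -0.24, and 8 of 27 in WT and 6 of 27 in KO past 1.5-fold. ATF4 targets were lower too, with medians of -0.53 and -0.28. Glutathione and antioxidant genes were higher in 11 of 27 in WT and 3 of 27 in KO, medians 0.33 and 0.11.

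By gene, marker-positive cells were above marker-low cells in Bace2, a protease that cleaves PMEL (0.90 in WT and 0.96 in KO), in the signalling adaptor Traf4 (0.98 in WT and 0.86 in KO), in the Ras activator Rasgrp3 (0.80 in WT and 0.86 in KO) and in the cytosolic isocitrate dehydrogenase Idh1 (0.79 in WT and 0.76 in KO). Also higher were Plin3, a lipid droplet protein (1.01 in WT and 0.63 in KO), Psen2, a subunit of gamma-secretase (0.95 in WT and 0.63 in KO), Psmd1 of the proteasome (0.65 in WT and 0.60 in KO), the lactate dehydrogenase subunit Ldhb (0.55 in WT and 0.63 in KO), Nudt16l1 (0.80 in WT and 0.78 in KO), Ssbp4 (0.74 in WT and 0.57 in KO), the axonemal dynein gene Dnaic1 (0.97 in WT and 0.55 in KO) and Ndufs8 of respiratory complex I (1.0 in WT and 0.54 in KO). These rest on few UMIs in the marker-low cells, 12 to 79 in WT. Marker-positive cells were below in Gm26917 (-3.53 in WT and -1.70 in KO) and Gm42418 (-1.87 in WT and -0.94 in KO), which overlap ribosomal RNA repeats, and in the glucose transporter Slc2a1 (-0.90 in WT and -1.0 in KO). The hypoxia-responsive genes Ero1l (-0.98 in WT and -0.79 in KO) and Hilpda (-1.04 in WT and -0.53 in KO), the chromatin protein Hmgb2 (-1.28 in WT and -0.69 in KO), the mitochondrial chaperone Hspa9 (-0.71 in WT and -0.62 in KO), the galectin Lgals3 (-0.57 in WT and -0.82 in KO), Myl12a (-0.63 in WT and -0.56 in KO), Junb (-0.55 in WT and -0.59 in KO), Akirin2 (-0.99 in WT and -0.55 in KO) and the actin-binding Tmsb4x (-1.45 in WT and -0.50 in KO) were lower as well. Junb lay above cycling and below marker-low cells, and so did Ero1l, except that by the mean of per-cell shares Ero1l in WT turned to 0.18 over marker-low cells. Host macrophage markers summed to 988 CPM in WT and 234 CPM in KO marker-low cells, above the marker-positive cells. With cells over 0.5% host and red cell marker UMIs left out, 139 of 140 named-gene values over all comparisons kept their sign. The other was Col3a1 between genotypes. The list medians over marker-low cells were then -0.71 in WT and -0.30 in KO for ATF4 targets. They were -0.24 in both libraries for hypoxia genes and 0.39 and 0.36 for pigment genes. The part of host transcripts left in the remaining cells was not tested. Thinning to 5000 UMIs before the rule chose the classes changed which cells were compared. Gm26917 was then at 0.10 in WT and 0.0044 in KO and Ndufs8 in WT at -0.10. Within 5000 to 20000 UMIs, Tmsb4x in WT and Gm26917 in KO turned to 1.02 and 0.12. Few WT marker-low cells were that deep. Of WT non-cycling cells, 161 of 177 with 5000 to 10000 UMIs and 78 of 81 with more were marker-positive. Ssbp4 in WT turned to -0.10 with a threshold of 2 markers, and Rasgrp3 in KO to -0.011 by per-cell shares.

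Between genotypes, 447 of 7860 genes (5.69%) were at least 1.5-fold higher in KO marker-positive cells and 409 (5.2%) at least 1.5-fold lower. The melanoma cells' own Atf4 was at 269 (WT) and 228 CPM (KO), a log2 ratio of -0.24 (-0.39 to -0.09), beside the lower level in KO host cells given above. ATF4 targets and stress response genes stood out by count: 12 of 31 measured were higher by 1.5-fold, none was lower, 27 were above 0, and the median was 0.53 beside 0.01 for all genes. In cycling cells, where 5.75% of 10685 genes were higher and 2.76% lower, 14 of 34 of these genes were higher, none lower, and the median was 0.44. Both classes of a library share its tumours, so they are not independent of each other.

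Some stress regulators of the list were higher in KO. Nupr1 was at 49.95 (WT) and 161 CPM (KO), a log2 ratio of 1.69 (1.40 to 1.98). Atf5, a bZIP factor translated and transcribed under stress, was at 27.5 (WT) and 82.8 CPM (KO), 1.59 (1.20 to 2.0). Trib3, a pseudokinase that restrains ATF4 and AKT signalling, was at 19.5 (WT) and 49.6 CPM (KO), 1.35 (0.87 to 1.85). All 3 intervals lay above 0. Not every regulator followed: Ddit3 had a ratio of 0.22 (-0.10 to 0.54), Chac1, which degrades glutathione, -0.11 (-0.95 to 0.76), and Ddit4, an inhibitor of mTORC1, -0.57 (-0.98 to -0.16).

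Metabolic targets were higher as well. Aldh1l2, a mitochondrial folate enzyme, was at 18.2 (WT) and 53.4 CPM (KO), 1.55 (1.07 to 2.07). Of the serine synthesis enzymes, Psph was at 84.7 (WT) and 177 CPM (KO), 1.06 (0.83 to 1.30), while Phgdh and Psat1 had ratios of 0.58 and 0.59. Asparagine synthetase Asns was at 154 (WT) and 233 CPM (KO), 0.60 (0.42 to 0.78). The translation repressor Eif4ebp1 was at 275 (WT) and 503 CPM (KO), 0.87 (0.74 to 1.01), and Cth, which makes cysteine, at 14.4 (WT) and 31.1 CPM (KO), 1.11 (0.55 to 1.71). Among transporters, Slc7a5 for large neutral amino acids and Slc7a11 for cystine had ratios of 0.98 and 0.85, whereas their shared heavy chain Slc3a2 was at 316 (WT) and 314 CPM (KO), -0.01 (-0.14 to 0.13). The tRNA synthetases measured lay between 0.19 (Nars) and 0.51 (Gars). In cycling cells Cth had a ratio of 0.01 and Psph of 0.62, against 2.05 for Nupr1. Per cell after thinning to 5000 UMIs, the list summed to a median of 12 UMIs (range 3 to 53) in WT and 18 (2 to 57) in KO marker-positive cells, so the 2 groups of cells overlapped widely.

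**Figure D5:**
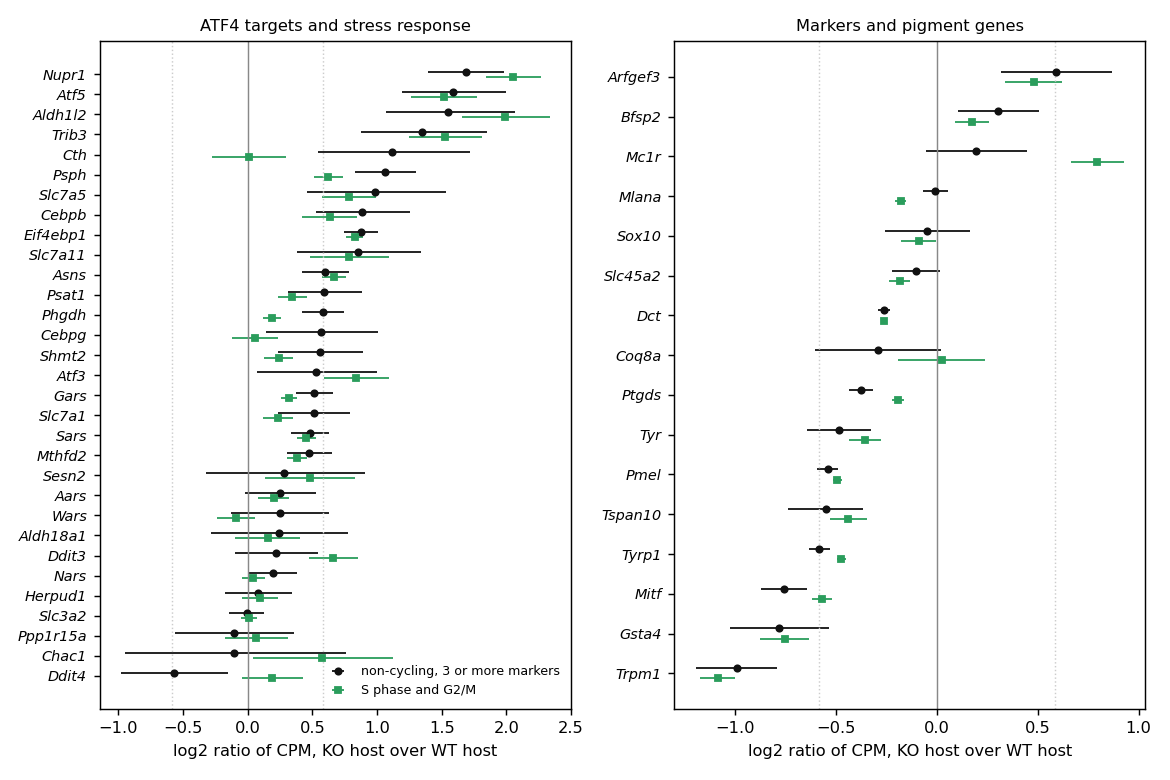
Log2 ratio of CPM, KO over WT library, with 95% counting intervals (x axis) for ATF4 targets (left) and marker and pigment genes (right), in marker-positive cells (black) and cycling cells (green), with 1.5-fold either way dotted. In marker-positive cells most ATF4 targets lay above 0, up to 1.69 for Nupr1. Most marker and pigment genes lay below 0 in these cells, down to -0.99 for Trpm1.

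The markers themselves did not move as a block between genotypes, and since they chose the cells their values are a description. Trpm1 (-0.99, -1.19 to -0.79), Gsta4 (-0.78, -1.02 to -0.54), Tspan10 (-0.55, -0.74 to -0.37) and Ptgds (-0.38, -0.44 to -0.31) were lower in KO. Arfgef3 (0.59, 0.32 to 0.87) and Bfsp2 (0.31, 0.11 to 0.51) were higher, and the intervals of Mc1r (0.19, -0.06 to 0.45) and Coq8a (-0.29, -0.60 to 0.02) included 0. In cycling cells the order was similar, with Trpm1 at -1.08, Gsta4 at -0.75 and Arfgef3 at 0.48, but Mc1r was higher in KO by 0.80 (0.66 to 0.93). Thus the KO cycling cells reached 81.9 CPM of Mc1r, near the 89.7 CPM of WT marker-positive cells.

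The pigment genes of the rule also chose the cells, so their values are a description as well. Tyrp1 (-0.58, -0.63 to -0.53), Pmel (-0.54, -0.59 to -0.49) and Dct (-0.26, -0.29 to -0.23) were lower in KO, as was Tyr at 275 (WT) and 196 CPM (KO) (-0.48, -0.64 to -0.33), whereas Mlana was at 1491 (WT) and 1484 CPM (KO) (-0.01, -0.07 to 0.05). Mitf was at 584 (WT) and 346 CPM (KO), a log2 ratio of -0.76 (-0.87 to -0.64), and its partners in the melanocyte programme were not lower to that degree: Sox10 had -0.05 (-0.26 to 0.16) and Pax3 0.12 (-0.04 to 0.28). Over the 28 pigment genes measured outside the rule, 3 were higher by 1.5-fold and 1 lower, a median of -0.05, near that of all genes. Of 15 MITF targets outside pigment synthesis 1 was higher and 2 lower, the latter being Cdk2, a cyclin-dependent kinase gene next to Pmel, at 192 (WT) and 97.8 CPM (KO) (-0.98, -1.18 to -0.77), and the lysosomal channel gene Mcoln3 (-1.51, -2.45 to -0.62). Ppargc1a, the mitochondrial biogenesis coactivator, was at 214 (WT) and 144 CPM (KO), -0.57 (-0.76 to -0.39). The glutathione transferases Gsta1 (-1.12, -1.40 to -0.84) and Gsta2 (-1.38, -1.76 to -1.01), near-identical to each other, so that their reads may not be told apart, were lower in KO too.

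A small number of cycle regulators passed 1.5-fold between genotypes, from short lists, beside 5.69% of all genes higher and 5.2% lower. Of 20 cell-cycle inhibitors measured, 1 (5%) was higher by 1.5-fold and 2 (10%) were lower (median -0.04). Of 9 G1 cyclins and kinases 1 (11.1%) was higher and 2 (22.2%) were lower (median -0.02). The single genes past 1.5-fold included Cdkn1a, at 271 (WT) and 427 CPM (KO), 0.66 (0.52 to 0.79), for which the ratio in cycling cells was 1.35. The D-type cyclin gene Ccnd1 (0.81, 0.61 to 1.01) was higher in KO, Ccnd2 (0.49, 0.40 to 0.58) did not reach 1.5-fold, and Myc was lower at 71.5 (WT) and 28.8 CPM (KO) (-1.31, -1.68 to -0.95). Hypoxia genes differed little, with 0 of 27 higher by 1.5-fold, 2 lower and a median of -0.07. The 2 were Ankrd37 (-0.85, -1.29 to -0.42) and the glycolytic enzyme gene Pfkl (-0.60, -0.76 to -0.45).

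By size alone, the 10 genes most above WT in KO marker-positive cells were Cyb5r1, Ccl5, Nupr1, Atf5, Aldh1l2, Blvrb, Sulf2, Cdr2l, Gm4876 and Trib3, 4 of them ATF4 targets of the list. Cyb5r1, a cytochrome b5 reductase, was at 11.9 (WT) and 54.2 CPM (KO), 2.19 (1.62 to 2.82). The ratios of the haem breakdown enzyme Blvrb, the heparan sulphate sulphatase Sulf2, Cdr2l and Gm4876 were between 1.36 and 1.39. Ccl5, a T-cell attracting chemokine, had a ratio of 2.07 (1.48 to 2.70), but 71.5% of its 172 KO UMIs lay in 5 cells.

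The genes most below WT were led by red cell and fibroblast genes. Among the haemoglobin genes, Hbb-bs had 1352 UMIs (572 CPM) in WT and 0 in KO marker-positive cells, a log2 ratio of -9.37 or lower against a floor of 3 counts per library, and Hbb-bt, Hba-a1 and Hba-a2 were also at 0 in KO. Of the Hbb-bs UMIs, 84.6% lay in 5 WT cells. Col3a1, a fibroblast collagen, was at 85.9 (WT) and 22.2 CPM (KO), -1.95 (-2.35 to -1.57), with 85.7% of 203 WT UMIs in 5 cells. Host fibroblast markers, of which 10 of 10 had a UMI, summed to 293 CPM in WT and 99.8 CPM in KO marker-positive cells, against 207 and 199 CPM in cycling cells. With the cells over 0.5% host and red cell marker UMIs left out (12 WT and 3 KO), Col3a1 turned to 0.69, the fibroblast list went from -2.24 to 0.01, and the ATF4 list was at 0.55. The remaining genes below WT were Myc, Gsta2, the replication protein gene Rpa3 (-1.43, -1.79 to -1.08) and the non-coding RNAs Mir670hg (-1.31, -1.70 to -0.93) and A830019P07Rik (-1.27, -1.66 to -0.88). T and NK markers (2.54 and 0 CPM) and keratinocyte markers (2.12 and 0.288 CPM) were near 0, with Cd3e, Trac, Nkg7, Krt5 and Krt14 at 0 in both libraries, and endothelial markers summed to 30.5 and 32.9 CPM.

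Marker-positive cells also varied among themselves. Among 239 WT and 338 KO cells thinned to 5000 UMIs, the variance over the mean was 1.07 and 1.08 for the median of 3026 genes, where counting alone gives a value near 1. The widest spread was in the nuclear RNA Malat1 (30.1 in WT and 22.99 in KO). Next came the macrophage lysozyme gene Lyz2 (11.4 and 9.92), the metallothionein Mt1 (8.56 and 7.26), Lgals3 (8.69 and 6.92), Gapdh (7.20 and 6.75), Tmsb10 (6.19 and 10.5) and Ero1l (6.08 and 6.87). Lyz2 was concentrated, with 59.5% of WT and 56.6% of KO UMIs in 5 cells. Ero1l was broad instead, with 14.4% and 9.01% in 5 cells. The ferritin genes Fth1 (5.81 and 13.3) and Ftl1 (5.38 and 5.32), the actin gene Actg1 (5.197 and 5.83) and Tmsb4x (10.9 and 5.07) followed. Of the markers only Ptgds ranked among these 12 genes, at 4.71 and 6.57, with a median of 8 UMIs per WT cell and 5 per KO cell.

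The 7 other markers had variances over the mean from 0.928 (Mc1r in WT) to 2.25 (Trpm1 in WT). Across cells the 4 pigment genes and the 8 markers varied together, with Pearson's r of 0.47 in WT and 0.46 in KO over 239 and 338 cells. Spearman's rank correlations were 0.49 and 0.35. Both sums are of genes that chose the cells. Ptgds alone had a mean of 9 UMIs per WT and 6.76 per KO cell, beside 13.1 and 10.4 for the 8 markers summed. Summed markers and hypoxia genes had r of -0.14 and -0.27, and ATF4 targets and hypoxia genes r of 0.11 and -0.05. These points share a library and a thinned depth and are given as a description.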

How the data were processed

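Whole-tumour cells were profiled by droplet single-cell RNA-seq, with 1 library per genotype. The deposited UMI counts per gene and cell barcode were made by the authors with Cell Ranger 3.1.0 on the mouse genome GRCm38, without normalization; Seurat 3.2.1 is also named in the submitters' processing notes. The labels give the V3 kit and the methods V2. Here the counts of a class of cells were summed per library and scaled to 1000000 UMIs (CPM). Log2 ratios carry exact 95% conditional binomial intervals, levels exact Poisson and shares Clopper-Pearson intervals. A gene was measured with at least 50 UMIs in a comparison and called past 1.5-fold. No test was made. Doublets (Scrublet through scanpy 1.11.5) were called and kept. TMM factors came from edgeR 4.0.16 in R 4.3.3. The scripts (Python 3.11.15, scipy 1.17.1) were tested on simulated data. Genes named by size are the 10 largest ratios each way between genotypes (at least 200 UMIs), 12 each way against marker-low cells, 15 each way against cycling cells (by the smaller ratio of both libraries) and 12 by spread. Among those against cycling cells, 1 gene is not reported here. The cells, the 23 gene lists and the comparisons were chosen with earlier results of these data known. The comparison with cycling cells and the omission of cells rich in host markers were added after seeing the data.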

Additional observations from a re-analysis of the deposited data

Results flagged for a closer look

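For 3 of the named genes the marker-positive cells stood above cycling cells in the library of 1 genotype and below them in the other, and the difference between the libraries was not tested. Cyb5r1, a cytochrome b5 reductase gene, had a log2 ratio to cycling cells of -0.89 (-1.50 to -0.33) in WT and 0.74 (0.48 to 0.98) in KO. Col3a1, a fibroblast collagen, had ratios of 0.79 (0.56 to 1.01) in WT and -1.22 (-1.58 to -0.88) in KO, and 85.7% of its 203 WT UMIs lay in 5 cells. The median of the fibroblast marker list, equal to the Col3a1 ratio in WT, turned there to -0.11 without the 12 WT cells rich in host markers, -1.85 with a threshold of 4 markers and -1.45 with the pigment limit at 1%. Gsta2, a glutathione transferase gene, had ratios of 0.34 (0.09 to 0.58) in WT and -0.43 (-0.76 to -0.10) in KO.

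Many barcodes met every condition but the mitochondrial limits and were not among the cells described. Above 7.5% mitochondrial UMIs there were 353 such barcodes in WT and 370 in KO, with median depths of 8432 and 9217.5 UMIs. Below 2% there were 7 in WT and 44 in KO.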

How the results depend on the processing

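No paired analysis was possible because the design has a single library for either genotype, and the spread between animals is unmeasured. The log2 ratio of the ATF4 list between genotypes stayed between 0.46 and 0.56 under 15 alternatives, and that of the marker-positive share of melanoma cells between 0.29 and 0.60 under 10. That of the marker-positive share of non-cycling cells (-0.11) lay between -0.31 and 0.00, on the same side of 0 in 9 of 10. Thinning to 5000 UMIs came here before the rule, which then chose 350 WT and 412 KO marker-positive cells. Unthinned it chose 275 and 358, although thinning left out the cells under 5000 UMIs. The cycle limits count detected genes, so the split into cycling and non-cycling cells also depends on depth. G2/M cells were the deeper, with medians of 12710 (WT) and 12486 UMIs (KO), beside 8937 and 9416.5 in marker-positive cells. How many cells changed class was not counted. The shares, list sums and spreads given above for thinned cells had kept the classes of the unthinned counts. Counts of genes depended most on the filter and the fold. Without a minimum of UMIs, 2405 genes (856 with it) passed 1.5-fold between genotypes, 3521 (164) against marker-low cells and 4694 (1120) against cycling cells. Past 2-fold the counts were 176, 21 and 458. Against marker-low cells 249 genes passed with a threshold of 2 markers, 316 with a mitochondrial limit of 15%, 68 after thinning to 5000 UMIs and 368 by the mean of per-cell shares, and against cycling cells 598 passed after thinning. The hypoxia list over cycling cells (0.95 in WT and 0.79 in KO) was 0.81 and 0.64 with 4 markers, 1.02 and 0.98 with the pigment limit at 1%, 0.78 and 0.63 with the mitochondrial limit of 15% and 0.74 and 0.45 after thinning. It was 0.89 in WT by both TMM and median-of-ratios scaling, and 0.70 in KO by per-cell shares and 0.72 without a minimum. The 8 markers in cycling over non-cycling cells (-0.24 in WT and -0.13 in KO) were at -0.31 and -0.19 with the pigment limit at 1%, -0.38 and -0.26 with the mitochondrial limit of 15% and -0.29 and -0.18 without mitochondrial and ribosomal protein genes. In WT they were at -0.16 by TMM, -0.15 by median-of-ratios and -0.15 by per-cell shares, and in KO at -0.20 after thinning. Atf4 between genotypes (-0.24) was at -0.49 with the pigment limit at 1%. Several values turned. The fibroblast list between genotypes (-2.24) was at 0.15 with 4 markers and 0.013 without cells rich in host markers. Over cycling cells in WT (0.79) it was at -1.85 with 4 markers, -1.45 with the pigment limit at 1%, -0.29 after thinning and -0.11 without those cells, where the red cell list (1.56) was at -0.18. Col3a1 between genotypes (-1.95) was at 0.88, 0.63 and 0.69 with 4 markers, the pigment limit at 1% and without those cells. Against marker-low cells in WT, the pigment list (0.24) was at -0.15 and Ssbp4 at -0.10 with 2 markers. Within 5000 to 20000 UMIs in WT, where few marker-low cells remained, the pigment list was at 0.53 and replication genes (-0.69) at 0.64. Mitosis genes (-1.21) were at 1.13, macrophage markers (-1.78) at 0.81, fibroblast markers (-1.63) at 1.57 and Tmsb4x (-1.45) at 1.02. Gm26917 in KO (-1.70) was at 0.12 in that range. After thinning, Ndufs8 in WT was at -0.10 and Gm26917 at 0.10 in WT and 0.0044 in KO. By per-cell shares, Rasgrp3 in KO was at -0.011 and Ero1l in WT at 0.18. The causes of these changes were not tested. TMM and median-of-ratios scaling shifted the WT ratios to marker-low cells by 0.14 and 0.11. Of 1481 values of list medians under all alternatives 1244 moved little and 11 turned, and of 2100 values of single genes 1883 and 11. Depth limits the marker-low cells most, which held medians of 1243 UMIs in WT and 2452.5 in KO.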
